A study of Homo sapiens with 9 samples.

Results

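The genes that encode the palmitoyl transferases and the palmitoyl thioesterases were described in HEK293A cells, a flat-growing line derived from human embryonic kidney cells, in which p65 had been knocked out. Members were the protein-coding genes named ZDHHC with a number and at most 1 further letter, together with LYPLA1, LYPLA2, PPT1, PPT2, ABHD10, ABHD13, ABHD17A, ABHD17B and ABHD17C. They came to 33 genes, 24 transferases and 9 thioesterases, of 58735 genes in the count table, of which 19951 were protein-coding. The cells had received a plasmid for a form of p65 named p65 2CS, a plasmid for p65 WT or an empty vector, with 3 libraries in each group. All cells carried the knockout, and all were given TNFα at 20 ng/mL for 2 h, starting 24 h after transfection, so the response to TNFα itself could not be compared. The labels do not spell out what 2CS stands for, nor do they say whether the knockout line is 1 clone or whether each library had its own culture. Should libraries of a group share a culture, the p-values reflect only sample-to-sample spread that may be technical. The series set out to examine how palmitoylation of p65, which RELA encodes and which is the main activating subunit of NF-kB, bears on gene expression.

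Palmitoylation (S-acylation) attaches a fatty acid, most often palmitate, to cysteines of a protein through a thioester bond, which makes the protein cling to membranes. Enzymes with an Asp-His-His-Cys motif, the ZDHHC transferases, take the acyl group from acyl-CoA and pass it on. Thioesterases of the serine hydrolase superfamily cut it off again. Among them are the acyl-protein thioesterases encoded by LYPLA1 and LYPLA2, the ABHD17 proteins, ABHD10 and the lysosomal enzyme PPT1. Because attachment is reversible, the modification can cycle on signalling proteins such as RAS proteins, SRC family kinases and G protein subunits.

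Libraries held 17146134 to 25068515 counts with p65 2CS, 15989601 to 16507689 with p65 WT and 17923114 to 20162267 with vector. RELA averaged 25518 ± 1382 counts-per-million (CPM) with p65 2CS, 9003 ± 943 CPM with p65 WT and 67.7 ± 1.61 CPM with vector (SD, n = 3 each), so both plasmids gave RELA RNA and the RNA of the 2CS form stood 2.83-fold above that of WT (adjusted p = 1.4e-30). The form of p65 and the amount of its RNA can therefore not be told apart in any comparison of 2CS with WT. NFKBIA and TNFAIP3, feedback inhibitors of NF-kB and long-known p65 targets, averaged 111 and 48.6 CPM with p65 2CS, 317 and 217 CPM with p65 WT and 36.4 and 6.98 CPM with vector. Of 10 nephron and neural genes known from HEK293 lines, 0 were at 0 in every library of a group, though NEFM had 0 reads in vector replicate 2, and their summed level was 1835 to 1901 CPM with p65 2CS, 1963 to 2029 CPM with p65 WT and 2075 to 2092 CPM with vector. Most of that sum was KRT8 and NEFL, and with p65 WT against vector 4 of the 10 genes were called higher (PAX8, CDH1, NEFM and INA, each under 5 CPM on average in every group), while KRT18 and NEFL were called lower. The summed level of 5 leukocyte markers lay between 3.09 and 4.005 CPM in all 9 libraries. That of 6 markers of differentiated nephron, among which UMOD and AQP2 were at 0 in every library, was 13.1 to 14.5 CPM with p65 2CS, 49.4 to 55.1 CPM with p65 WT and 9.93 to 11.9 CPM with vector, most of it with p65 WT from NPHS1. That of 6 markers of fibroblasts and endothelium, 0 of them at 0 throughout a group, was 51.8 to 54.4 CPM with p65 2CS, 67.9 to 69.98 CPM with p65 WT and 48.9 to 55.2 CPM with vector. Of the 4 tested, 1 was called higher with p65 2CS and 2 with p65 WT, each against vector (25% and 50%). Of all genes tested, 12.1% and 16.4% were called higher. The highest log2 folds among the 4 were 4.43 and 6.57, changes of single genes that the sum does not show. Fewer cells of a type and less RNA per cell cannot be told apart in such bulk samples, and the part of these marker differences in the results was not tested.

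Of the 33 members, 31 passed the filter on low counts. The transferase gene ZDHHC19 had 11, 6 and 7 reads in the p65 2CS libraries, 5, 4 and 5 in the p65 WT libraries and 3, 8 and 4 in the vector libraries, and was not tested. ZDHHC15 had 0 reads in every p65 2CS and p65 WT library and 1 read in all in the vector libraries. Where a whole group has 0 reads, up to 3 counts are allowed, which is 0.0490 CPM with p65 2CS and 0.0616 CPM with p65 WT (counting error only), so ZDHHC15 could not be followed at this depth.

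Transcript levels were compared between genes per length, as transcripts-per-million values (TPM) computed from the counts and the gene lengths in the table, averaged over all 9 libraries. Among the 22 tested transferases the highest mean levels were those of ZDHHC5, a transferase of the plasma membrane, at 94.5 TPM, ZDHHC16 at 91.0 TPM and ZDHHC8 at 73.4 TPM. The lowest were ZDHHC11B at 8.03 TPM, ZDHHC14 at 4.74 TPM and ZDHHC22 at 1.25 TPM, which put the top of the family 75.8-fold above its lowest tested member. The range within the thioesterases was narrower, at 9.55-fold. ABHD17A had the highest mean level of the 9 thioesterases (136 TPM) and ABHD13 the lowest (14.2 TPM), with LYPLA2 at 115 TPM, PPT1 at 99.6 TPM, LYPLA1 at 52.5 TPM and ABHD10 at 50.9 TPM between them. The order at the top depended on the group, since LYPLA2 stood below ABHD17A with p65 2CS (97.8 against 129.7 TPM), above it with p65 WT (154 against 139 TPM) and below it with vector (94.5 against 138 TPM). Summed over members, thioesterase RNA came to 542 ± 13.4 TPM with p65 2CS, 589 ± 9.80 TPM with p65 WT and 563 ± 1.87 TPM with vector. LYPLA2 made up 18.0 ± 0.562% of that sum with p65 2CS, 26.2 ± 1.10% with p65 WT and 16.8 ± 0.286% with vector. Transferase RNA summed to 732 ± 2.08 TPM with p65 2CS, 722 ± 10.9 TPM with p65 WT and 742 ± 2.53 TPM with vector (SD, n = 3 each). TPM were not scaled by TMM, the scaling between libraries that CPM uses. The TMM factors ran from 1.0001 to 1.0052 with p65 2CS, 0.9808 to 0.9889 with p65 WT and 1.0109 to 1.0149 with vector. Gaps as small as those between the transferase sums can depend on the scaling, and the order of the sums was not tested.

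**Figure D1:**
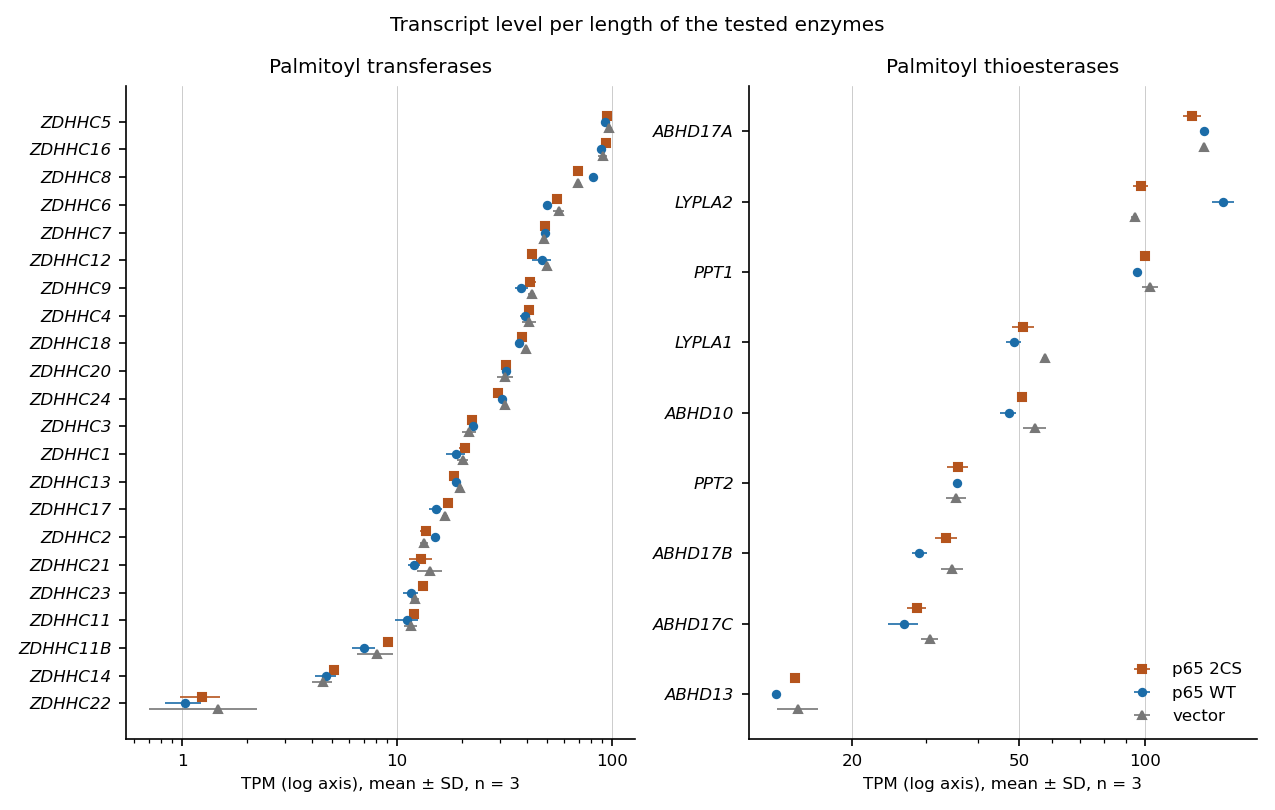
Level per length (TPM, log axis) of the 22 tested transferases and the 9 thioesterases, ordered by their mean over all libraries; points are means and bars SD over 3 libraries with p65 2CS (squares), p65 WT (circles) and vector (triangles). The 3 groups lie close together for most genes, while LYPLA2 stands at 154 TPM with p65 WT, against 97.8 TPM with p65 2CS and 94.5 TPM with vector.

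Most of these genes were called in no comparison. With p65 WT against vector, 3 of the 31 tested members rose and 5 fell (edgeR's quasi-likelihood test, Benjamini-Hochberg adjusted p under 0.05 over all genes tested). That is 25.8% of them, near the 28.8% of all 18195 genes tested that were called in this comparison, of which 16.4% were higher and 12.5% lower. With p65 2CS against vector, 0 members rose and 3 fell (9.68%), beside 23.4% of all genes (12.1% higher and 11.4% lower), while 6 members had an unadjusted p under 0.05 and DESeq2 also called 0 higher. With p65 2CS against p65 WT, 0 rose and 5 fell (16.1%), beside 31.2% of all genes (13.4% higher and 17.9% lower), while 7 members had an unadjusted p under 0.05 and DESeq2 again called 0 higher. Scaling by total counts and a fit of these 2 groups alone each called 1 member higher in that comparison, ZDHHC11B. Both comparisons with vector share the same 3 vector libraries, and both comparisons with p65 WT share its 3 libraries, so the 3 counts are not independent.

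Log2 folds of the members were mostly under 0.3 in size. The median size of the log2 fold over members, sign ignored, was 0.0898 for p65 WT against vector, 0.0538 for p65 2CS against vector and 0.0696 for p65 2CS against p65 WT, beside 0.151, 0.137 and 0.159 over all genes tested. The signed medians of the members were -0.03, -0.04 and 0.01. Log2 folds under 0.3 in size were found for 29 of 31 members (93.5%, against 72.3% of all genes) with p65 WT against vector and for 31 of 31 (100%, against 77.5%) with p65 2CS against vector. Against p65 WT, 93.5% of members and 72.9% of all genes lay under that size in p65 2CS. The set of all genes was not matched to the members for expression level. The gap in fold size was therefore not tested as a trait of the family. Within a group, the SD was 4.53% of the mean for the median member, and standard errors of the log2 folds ran from 0.03 to 0.12 when ZDHHC22, the lowest tested gene, is left out.

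**Figure D2:**
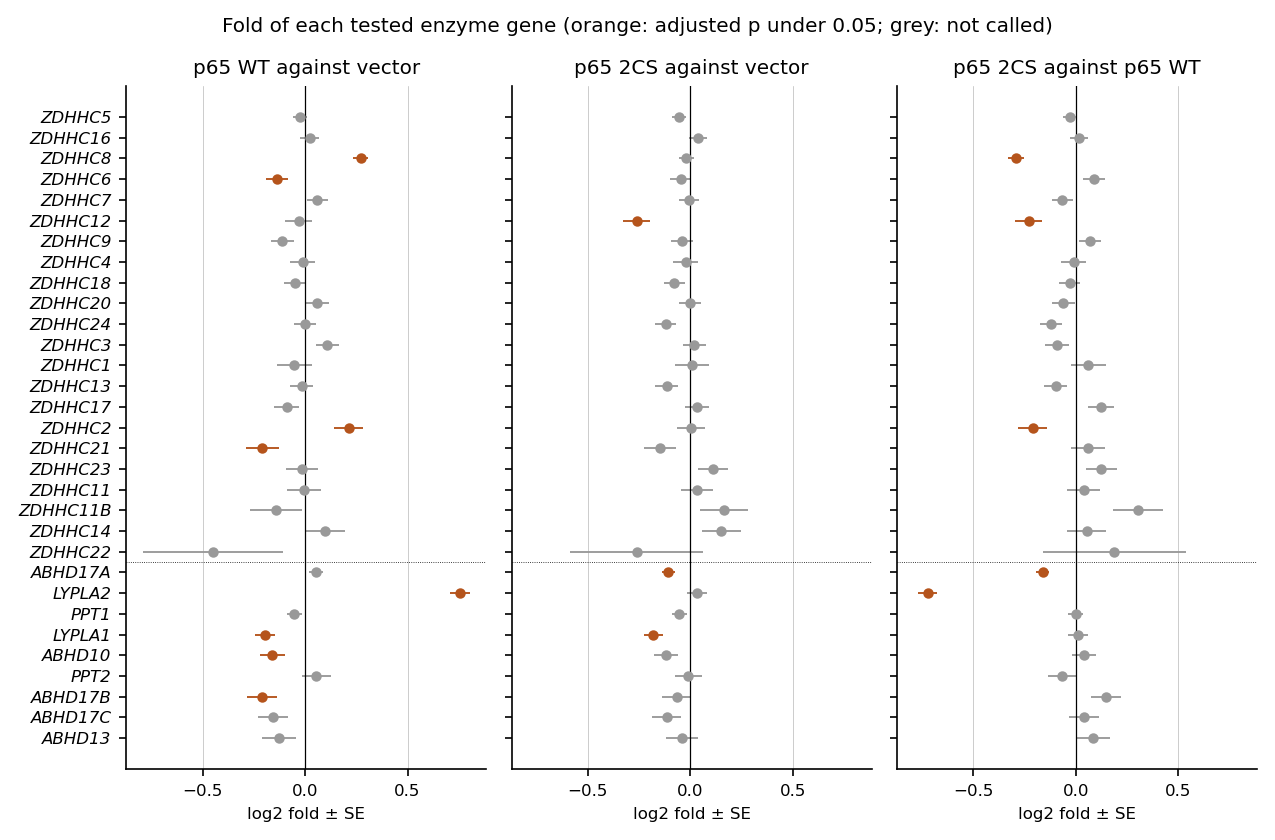
Log2 fold with its standard error for each of the 31 tested members in the 3 comparisons, transferases above the dotted line and thioesterases below it, each ordered by mean TPM; orange points had an adjusted p under 0.05. LYPLA2 at 0.76 and -0.72 lies apart from the other members, and the wide bars at the foot of the transferases belong to ZDHHC22.

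The largest difference was that of LYPLA2 (ENSG00000011009, chr1:23790970-23795539, plus strand of GRCh38), which encodes acyl-protein thioesterase 2, a cytosolic enzyme that removes palmitate from membrane-bound proteins. It measured 55.0, 55.9 and 60.3 CPM in the p65 2CS libraries, 90.0, 91.8 and 101 CPM in the p65 WT libraries and 54.7, 55.4 and 57.3 CPM in the vector libraries. All 3 p65 WT libraries lay above the other 6, and the p65 2CS and vector libraries overlapped. LYPLA2 rose 1.69-fold with p65 WT against vector (log2 fold 0.76 ± 0.05 SE, adjusted p = 1.47e-16) and fell in p65 2CS to 0.606 of its p65 WT level (log2 fold -0.72 ± 0.05, adjusted p = 6.76e-16). Between p65 2CS and vector its log2 fold was 0.03 ± 0.05 (adjusted p = 0.708). By size of fold it ranked 1333 among the 2976 genes that rose with p65 WT and 1080 among the 3254 that fell in p65 2CS against p65 WT, so larger folds were common among other genes. PITHD1, which lies upstream of it, was not called, with a log2 fold of 0.05 ± 0.05 (adjusted p = 0.472) with p65 WT against vector. Of the 100-base stretches of its exons, 5.13% occur also in another gene, a pseudogene copy among them, so some reads could have been split or dropped.

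The sequence around the RefSeq start of LYPLA2 is shown because this gene moved most. That of ZDHHC8 is shown because it was the transferase with the smallest adjusted p. Both are RefSeq windows on GRCh38.p14, from 250 bases before to 50 bases after the annotated start, printed 5′ to 3′ on the gene's strand with the GC box GGGCGG, or its reverse complement, in capitals. The LYPLA2 window is chr1:23790895-23791194 (plus strand, 66.0% G and C). The LYPLA2 gene start in the count table, 23790970, lies inside it, so most of the window is within the counted gene. The ZDHHC8 window is chr22:20131554-20131853 (plus strand, 81.3% G and C), which begins downstream of the gene start in the count table.
LYPLA2: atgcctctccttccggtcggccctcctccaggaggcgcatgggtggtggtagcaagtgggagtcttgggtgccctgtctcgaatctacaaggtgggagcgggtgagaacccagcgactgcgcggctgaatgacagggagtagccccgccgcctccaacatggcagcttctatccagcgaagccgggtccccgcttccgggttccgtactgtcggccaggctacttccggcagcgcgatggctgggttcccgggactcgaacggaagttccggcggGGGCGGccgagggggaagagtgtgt
ZDHHC8: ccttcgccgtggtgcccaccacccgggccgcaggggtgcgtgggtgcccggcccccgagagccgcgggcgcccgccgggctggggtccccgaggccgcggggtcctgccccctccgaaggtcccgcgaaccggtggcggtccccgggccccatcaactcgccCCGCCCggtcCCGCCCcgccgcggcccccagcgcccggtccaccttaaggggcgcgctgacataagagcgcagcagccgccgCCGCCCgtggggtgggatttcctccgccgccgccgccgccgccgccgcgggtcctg
The LYPLA2 window holds 1 GC box and the ZDHHC8 window 3. Neither holds a match on either strand to the NF-kB consensus used here, the 10 bases GGGRNWYYCC. In it R is A or G, N is any base, W is A or T and Y is C or T. The lack of a match says only that those letters are not in these windows, since shorter or looser forms of the site were not sought. RefSeq windows were at hand for 25 of the 33 members (30 windows, since some genes have several starts). A GC box was found in 23 of these 30 windows (76.7%), against 45.0% of 35116 windows of all genes, and an NF-kB consensus match in 3 (10.0%), against 5.91% of all windows. Those 3 windows belong to ZDHHC23, whose 2 overlapping windows share 1 match that fits the consensus on both strands, and to ZDHHC9. Each match is printed in capitals with 10 bases on either side, a stretch that spans chr3:113947869-113947898 (plus strand) for ZDHHC23 and chrX:129843658-129843687 (minus strand) for ZDHHC9.
ZDHHC23: gcggacaggcGGGGAACCCCggcgccgggg
ZDHHC9: gggtgggggcGGGGGTCTCCtgggctcggc
Neither of these genes was called in any comparison: with p65 WT against vector, the log2 fold was -0.01 ± 0.08 for ZDHHC23 (adjusted p = 0.915) and -0.11 ± 0.05 for ZDHHC9 (adjusted p = 0.13). A match is a description of the letters, not evidence of a bound site.

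Among the transferases, ZDHHC8 and ZDHHC2 were the 2 that rose with p65 WT, both of them known from neurons as enzymes for synaptic proteins. ZDHHC8 (ENSG00000099904, chr22:20129456-20148007) measured 101, 100 and 106 CPM in the p65 2CS libraries, 125, 125 and 126 CPM in the p65 WT libraries and 103, 101 and 107 CPM in the vector libraries. The p65 WT libraries were again above all others, and those of p65 2CS and vector overlapped. Its log2 fold was 0.27 ± 0.04 with p65 WT against vector (adjusted p = 1.45e-07) and -0.29 ± 0.04 with p65 2CS against p65 WT (adjusted p = 3.37e-08), with -0.02 ± 0.04 between p65 2CS and vector (adjusted p = 0.76). ZDHHC2 (ENSG00000104219), which palmitoylates the scaffold protein PSD-95, measured 24.9, 24.96 and 22.9 CPM with p65 2CS, 27.2, 28.5 and 28.5 CPM with p65 WT and 23.2, 25.3 and 24.2 CPM with vector. It was also highest with p65 WT, at a smaller margin. Its log2 folds were 0.21 ± 0.07 for p65 WT against vector (adjusted p = 0.0196) and -0.21 ± 0.07 for p65 2CS against p65 WT (adjusted p = 0.0197). Against vector, the call did not survive leaving out vector replicate 1, vector replicate 3, p65 WT replicate 5 or p65 WT replicate 6 (adjusted p 0.0523 to 0.0911) or scaling by total counts (adjusted p = 0.0606). In p65 2CS against p65 WT, it did not survive leaving out replicate 5 or 6 of p65 WT (adjusted p = 0.0575 and 0.0618) or replicate 9 of p65 2CS (adjusted p = 0.105).

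**Figure D3:**
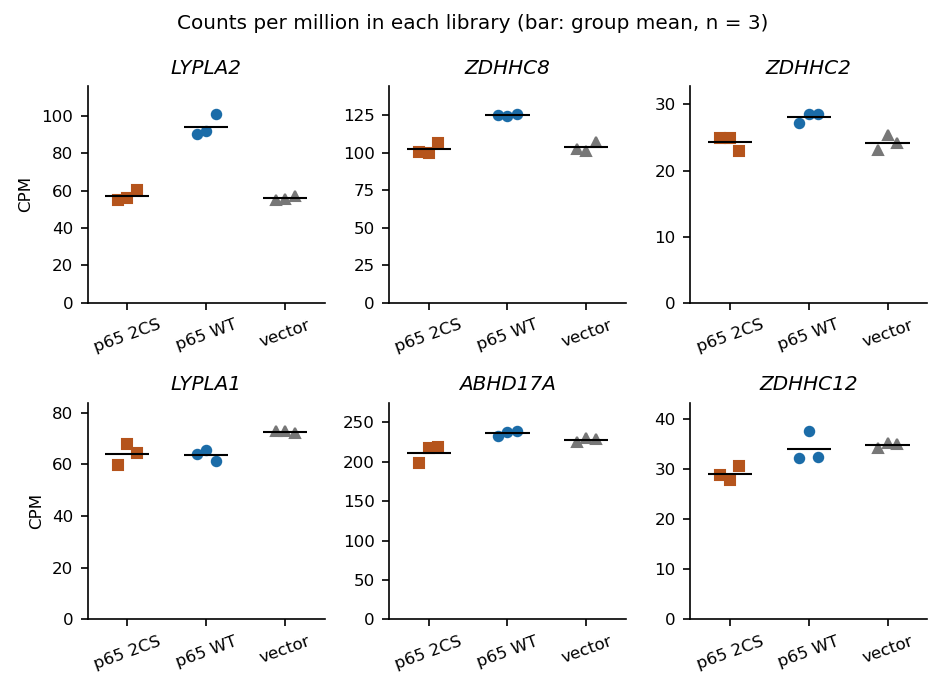
CPM in each of the 9 libraries for 6 members, with p65 2CS (squares), p65 WT (circles) and vector (triangles) from left to right, horizontal bars at group means and axes from 0. LYPLA2, ZDHHC8 and ZDHHC2 are highest with p65 WT, LYPLA1 is highest with vector at 72.1 to 72.9 CPM, and ABHD17A and ZDHHC12 are lowest with p65 2CS.

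ABHD17A and ZDHHC12 were lower with p65 2CS than in both other groups. ABHD17A (ENSG00000129968, chr19:1876810-1885547), a membrane-bound thioesterase that removes palmitate from NRAS, measured 199, 217 and 218 CPM with p65 2CS, 233, 238 and 239 CPM with p65 WT and 225, 231 and 229 CPM with vector. The p65 2CS libraries lay below all the others. ABHD17A fell by 0.11 log2 units against vector (SE 0.03, adjusted p = 0.0111) and by 0.16 against p65 WT (SE 0.03, adjusted p = 0.00011), while p65 WT against vector gave 0.05 ± 0.03 (adjusted p = 0.226). Without p65 2CS replicate 7 its fall against vector was 0.07 in size and no longer called (adjusted p = 0.154), and without vector replicate 2 its adjusted p was 0.0529.

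ZDHHC12 (ENSG00000160446, chr9:128720869-128724127, minus strand), reported to palmitoylate the inflammasome protein NLRP3, measured 28.7, 27.9 and 30.6 CPM with p65 2CS, 32.2, 37.6 and 32.3 CPM with p65 WT and 34.2, 35.2 and 35.0 CPM with vector. Its p65 2CS libraries were below the rest, and the p65 WT libraries overlapped those of vector. It fell by 0.26 log2 units in p65 2CS against vector (SE 0.07, adjusted p = 0.00273) and by 0.23 against p65 WT (SE 0.07, adjusted p = 0.00725). The difference from p65 WT rested in part on single libraries, with adjusted p = 0.115 without p65 WT replicate 5 and 0.0537 without p65 2CS replicate 8. PKN3 lies on the opposite strand and shares 50 exonic bases with ZDHHC12, or 1.93% of its exons.

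LYPLA1, the gene for acyl-protein thioesterase 1 and the closest relative of LYPLA2 among the members, went the other way from it with p65 WT. It measured 59.9, 67.6 and 64.2 CPM with p65 2CS, 64.1, 65.4 and 61.1 CPM with p65 WT and 72.9, 72.9 and 72.1 CPM with vector. All 6 libraries with a p65 form lay below the 3 vector libraries, and the forms overlapped each other. LYPLA1 fell by 0.19 log2 units with p65 WT (SE 0.05, adjusted p = 0.0017) and by 0.18 with p65 2CS (SE 0.05, adjusted p = 0.00368), both against the same vector libraries, and the forms differed by 0.01 ± 0.05 (adjusted p = 0.876).

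The remaining falls with p65 WT against vector were close to the threshold. ABHD17B, a paralog of ABHD17A, measured 25.3, 25.4 and 28.5 CPM with p65 2CS, 23.4, 23.0 and 25.04 CPM with p65 WT and 27.7, 29.1 and 25.9 CPM with vector, where p65 WT did not overlap vector (log2 fold -0.21 ± 0.07, adjusted p = 0.0255). ZDHHC6, a transferase of the endoplasmic reticulum, measured 55.3, 52.5 and 57.5 CPM with p65 2CS, 52.8, 50.9 and 51.2 CPM with p65 WT and 53.9, 56.1 and 60.6 CPM with vector, also without overlap between p65 WT and vector (-0.14 ± 0.05, adjusted p = 0.0487). The next 2 overlapped between those groups.

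ABHD10, a mitochondrial thioesterase, measured 39.7, 41.4 and 41.4 CPM with p65 2CS, 42.0, 38.6 and 38.6 CPM with p65 WT and 41.7, 44.0 and 47.6 CPM with vector (-0.16 ± 0.06, adjusted p = 0.0402). ZDHHC21, a transferase with SRC family kinases among its substrates, measured 27.8, 35.3 and 34.3 CPM with p65 2CS, 32.6, 32.3 and 29.2 CPM with p65 WT and 37.7, 40.0 and 30.8 CPM with vector (-0.21 ± 0.08, adjusted p = 0.0455). Each of these 4 calls was lost when single libraries were left out, with adjusted p up to 0.132 for ABHD17B, 0.27 for ZDHHC6, 0.239 for ABHD10 and 0.311 for ZDHHC21. With DESeq2's size factors, ABHD10, ZDHHC6 and ZDHHC21 lost theirs (adjusted p = 0.0605, 0.0753 and 0.062), and with its Wald test all 4 did (0.0755 for ABHD17B, 0.131 for ZDHHC6, 0.107 for ABHD10 and 0.326 for ZDHHC21). Differences of p65 2CS from vector or from p65 WT were not called for any of these 4 genes (adjusted p 0.135 or more).

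The other 21 tested members were called in no comparison. They were the thioesterase genes PPT1, PPT2, ABHD17C and ABHD13 and the transferase genes ZDHHC1, ZDHHC3, ZDHHC4, ZDHHC5, ZDHHC7, ZDHHC9, ZDHHC11, ZDHHC11B, ZDHHC13, ZDHHC14, ZDHHC16, ZDHHC17, ZDHHC18, ZDHHC20, ZDHHC22, ZDHHC23 and ZDHHC24. Leaving out ZDHHC22, their log2 folds over the 3 comparisons lay between -0.16 and 0.30. The most abundant transferase, ZDHHC5, averaged 136 ± 0.102 CPM with p65 2CS, 139 ± 1.83 CPM with p65 WT and 142 ± 3.55 CPM with vector (SD, n = 3 each), with log2 folds of -0.03 to -0.06 in the 3 comparisons and standard errors of 0.03. PPT1, the lysosomal enzyme lost in infantile neuronal ceroid lipofuscinosis, averaged 135 ± 1.61, 136 ± 2.85 and 141 ± 6.02 CPM in the same order of groups. ZDHHC7 and ZDHHC3, transferases of the Golgi, had log2 folds of at most 0.11 in size in all 3 comparisons.

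The largest log2 fold among these genes other than ZDHHC22 was that of ZDHHC11B, at 0.30 ± 0.12 with p65 2CS against p65 WT (adjusted p = 0.0545), from means of 11.6 ± 0.557 CPM with p65 2CS, 9.46 ± 1.16 CPM with p65 WT and 10.4 ± 2.03 CPM with vector. It was called higher when libraries were scaled by total counts (adjusted p = 0.0329), when only these 2 groups were fitted (0.0397) and without p65 WT replicate 4 (0.0246), vector replicate 1 (0.035) or vector replicate 3 (0.0404). ZDHHC11B and ZDHHC11 are near copies, with 19.1% of the 100-base stretches of ZDHHC11B also found elsewhere, so their reads could be split between them. ZDHHC22 averaged 1.27 ± 0.268, 1.11 ± 0.221 and 1.53 ± 0.805 CPM with p65 2CS, p65 WT and vector, too few reads to tell a difference of its size (-0.45 ± 0.34 with p65 WT against vector). PPT2 shares 49.3% of its exons with the readthrough gene PPT2-EGFL8, PPT1 23.4% with CAP1 and ZDHHC24 12.1% with BBS1 on the opposite strands, so their counts may include or lack reads of those genes.

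Genes that act around the enzymes were described through 6 lists with 75 genes, of which 68 were tested. With p65 WT against vector 15 of the 68 rose and 6 fell, with p65 2CS against vector 6 rose and 12 fell, and with p65 2CS against p65 WT 7 rose and 19 fell. These are 30.9%, 26.5% and 38.2% of the genes, beside the 28.8%, 23.4% and 31.2% called among all genes. Their median log2 folds were 0.02, -0.03 and -0.04, beside -0.02, -0.00 and 0.00 over all genes tested.

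Of the 3 proteins that bind transferases and stabilise or activate them, GOLGA7B, known as a partner of ZDHHC5, changed most. It measured 2.502, 1.39 and 1.05 CPM with p65 2CS, 7.44, 6.97 and 7.29 CPM with p65 WT and 1.07, 1.13 and 1.27 CPM with vector. GOLGA7B rose with p65 WT against vector (log2 fold 2.64 ± 0.23, adjusted p = 1.31e-12) and was lower with p65 2CS than with p65 WT (-2.16 ± 0.22, adjusted p = 9.02e-11), with no overlap in either case. Its partner ZDHHC5 had a log2 fold of -0.03 ± 0.03 with p65 WT against vector (adjusted p = 0.625). SELENOK, the selenoprotein that works with ZDHHC6, fell by 0.20 log2 units in p65 2CS against vector (adjusted p = 0.0236) and by 0.17 against p65 WT (adjusted p = 0.048). The call of SELENOK against p65 WT was lost under 12 of 16 alternatives, among them leaving out any library of p65 2CS or p65 WT (adjusted p up to 0.151). Its call against vector was lost under 4 of 16, among them without vector replicate 1 or 3 or p65 2CS replicate 7 (adjusted p up to 0.155). GOLGA7, the partner of ZDHHC9, was called in no comparison.

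Among the membrane-bound O-acyltransferases of secreted proteins and the esterase that reverses their work on Wnt, 3 of 5 genes were tested and only the esterase gene NOTUM was called. With p65 WT against vector and with p65 2CS against p65 WT, 1 of 3 was called (33.3%), beside 28.8% and 31.2% of all genes. With p65 2CS against vector 0 of 3 were called, beside 23.4% of all genes. NOTUM measured 2.56, 3.14 and 2.63 CPM with p65 2CS, 6.56, 6.40 and 7.11 CPM with p65 WT and 1.97, 2.89 and 2.27 CPM with vector. The p65 WT libraries stood above all others (1.49 ± 0.19 against vector, adjusted p = 1.63e-08), and p65 2CS was lower than p65 WT (-1.25 ± 0.18, adjusted p = 3.76e-07).

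Of 12 tested genes for the supply of palmitoyl-CoA, 2 rose and 1 fell with p65 WT against vector, 1 rose and 1 fell with p65 2CS against vector, and 2 rose and 3 fell with p65 2CS against p65 WT. These are 25%, 16.7% and 41.7% of the 12, beside 28.8%, 23.4% and 31.2% of all genes. DBI, the acyl-CoA binding protein that carries long-chain acyl-CoA in the cytosol, measured 31.9, 29.4 and 29.2 CPM with p65 2CS, 53.2, 50.3 and 58.4 CPM with p65 WT and 33.0, 31.5 and 33.2 CPM with vector. Its p65 WT libraries were the highest, as for LYPLA2 (0.73 ± 0.06 against vector, adjusted p = 6.18e-13), and p65 2CS was lower than p65 WT (-0.84 ± 0.06, adjusted p = 1.34e-14). ACSL3, an acyl-CoA synthetase, and ACLY, which makes cytosolic acetyl-CoA, were lower with p65 2CS than with p65 WT by 0.32 (adjusted p = 2.04e-06) and 0.13 (adjusted p = 8.64e-05) log2 units. FASN, the fatty acid synthase that makes palmitate, was called in no comparison and averaged 1158 CPM with p65 2CS, 1200 CPM with p65 WT and 1188 CPM with vector.

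**Figure D4:**
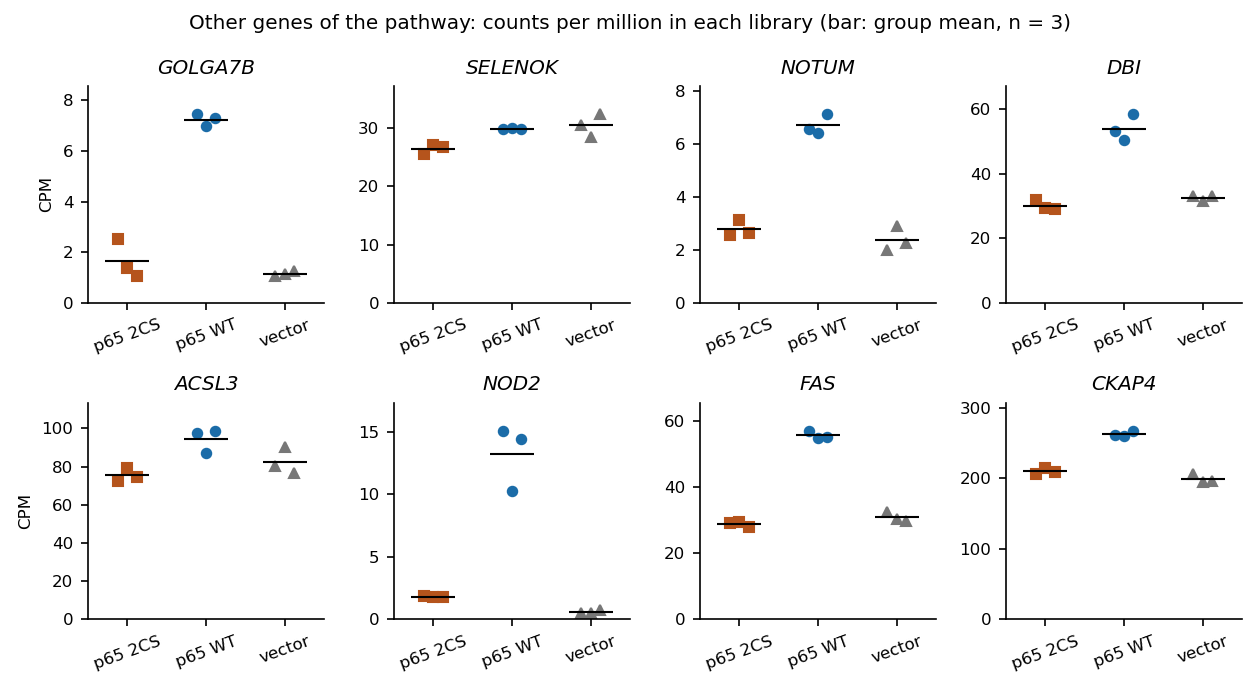
CPM in each library for 8 genes around the enzymes, with p65 2CS (squares), p65 WT (circles) and vector (triangles) from left to right, bars at group means and axes from 0. GOLGA7B, NOTUM, DBI, NOD2, FAS and CKAP4 have all 3 p65 WT libraries above the other 6, while SELENOK and ACSL3 differ by less.

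Acyl-CoA thioesterases, which act on free acyl-CoA and not on proteins, gave 1 rise and 0 falls with p65 WT, 0 and 1 with p65 2CS, each against vector, and 1 and 2 with p65 2CS against p65 WT, among 8 tested. These are 12.5%, 12.5% and 37.5% of the 8, beside 28.8%, 23.4% and 31.2% of all genes. ACOT11 rose with p65 WT (0.60 ± 0.15, adjusted p = 0.00196), ACOT9 fell in p65 2CS against vector (by 0.17, adjusted p = 4.4e-05) and THEM4 was higher in p65 2CS than in p65 WT (0.20 ± 0.07, adjusted p = 0.0276). The call of THEM4 was lost under 6 of 16 alternatives, namely the DESeq2 Wald test, no filter, and without replicate 4 or 6 of p65 WT or replicate 8 or 9 of p65 2CS (adjusted p up to 0.166). Among 14 relatives of the thioesterases in the hydrolase fold family, 0 rose and 2 fell with p65 WT, 1 rose and 1 fell with p65 2CS, and 2 rose and 0 fell with p65 2CS against p65 WT. In each comparison 14.3% of the 14 were called, beside 28.8%, 23.4% and 31.2% of all genes. ABHD4 was higher with p65 2CS than with p65 WT (0.45 ± 0.10, adjusted p = 0.000399). ABHD11, a mitochondrial hydrolase, was lower than vector with p65 2CS (-0.29 ± 0.07, adjusted p = 0.00106) and with p65 WT (-0.26 ± 0.07, adjusted p = 0.00217). ABHD5, the activator of the triglyceride lipase of fat droplets, fell with p65 WT (by 0.31, adjusted p = 0.006), a call that was lost without vector replicate 3 or without p65 WT replicate 6 (adjusted p up to 0.0787).

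Well-studied palmitoylated signalling proteins, which are substrates of the enzymes, numbered 28 among the genes tested. With p65 WT against vector 10 rose and 3 fell (46.4% called, against 28.8% of all genes, 16.4% higher and 12.5% lower). With p65 2CS against vector 4 rose and 8 fell (42.9%, against 23.4% of all genes, 12.1% higher and 11.4% lower). With p65 2CS against p65 WT 2 rose and 11 fell (46.4%, against 31.2%, 13.4% higher and 17.9% lower). The list was drawn up with earlier results of these data known, so an excess of calls among substrates was not tested by these shares. NOD2, a sensor of bacterial peptidoglycan fragments, measured 1.86, 1.75 and 1.79 CPM with p65 2CS, 15.1, 10.3 and 14.4 CPM with p65 WT and 0.480, 0.538 and 0.774 CPM with vector. All 3 groups were apart: NOD2 rose with p65 WT (4.46 ± 0.22, adjusted p = 1.94e-20) and with p65 2CS (1.58 ± 0.28, adjusted p = 3.68e-05) against vector, and p65 2CS was lower than p65 WT (-2.88 ± 0.18, adjusted p = 9.44e-17). FAS, the death receptor, measured 29.1, 29.6 and 27.9 CPM with p65 2CS, 57.2, 54.9 and 55.4 CPM with p65 WT and 32.6, 30.4 and 29.8 CPM with vector. It rose with p65 WT (0.85 ± 0.06, adjusted p = 1.2e-15) and was lower with p65 2CS than with p65 WT (-0.95 ± 0.06, adjusted p = 5.8e-17). CKAP4, a palmitoylated protein of the endoplasmic reticulum, averaged 210 CPM with p65 2CS, 263 CPM with p65 WT and 199 CPM with vector and rose with p65 WT (0.40 ± 0.03, adjusted p = 2.63e-14).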

How the data were processed

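Messenger RNA of p65 knockout HEK293A cells was sequenced in 9 libraries, 3 each with p65 2CS, p65 WT and vector. The authors deposited raw counts, 1 whole number per gene and library with no normalization. HISAT2 2.0.5 is the aligner that the submitters' processing notes name. For the counting tool, strand setting and genome build the answer is not given in the sources used here, but all 58735 gene positions equal those of GENCODE 29 on GRCh38. With strand handling unknown, overlapping and antisense genes cannot be told apart.

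From the deposited counts, edgeR 4.0.16 in R 4.3.3 kept 18195 genes by its expression filter over the 3 groups, scaled libraries by TMM and ran the quasi-likelihood F test in 1 fit of all 9 libraries, with Benjamini-Hochberg adjustment over all genes tested and a threshold of 0.05. CPM uses TMM-scaled totals, TPM uses the deposited gene lengths without TMM, and errors of log2 folds are standard errors implied by the F test. Total counts were 15989601 to 25068515, and the floors for groups with 0 reads cover counting error only. Libraries of a group differed by more than sampling noise (chi-square per degree of freedom 1.91 to 2.64). The script was tested on simulated counts.

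Members called in any comparison are given in every library, and of each pathway list up to 3 called genes with the smallest adjusted p; members and lists were chosen with earlier results of these data known. NF-kB and GC box matches were sought on both strands of RefSeq promoter windows. Alternatives were DESeq2 1.42.0 size factors and its Wald test, total-count scaling, RELA left out of scaling, no filter, a filter of 1 CPM in 3 libraries, a fit of only the 2 groups compared, and leaving out each library.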

Additional observations from a re-analysis of the deposited data

How the results depend on the processing

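Of 16 calls of members, 8 were kept under all 16 alternatives tried for each (LYPLA2 and ZDHHC8 with p65 WT against vector and with p65 2CS against p65 WT, LYPLA1 with either form against vector, ABHD17A against p65 WT and ZDHHC12 against vector in p65 2CS). The other 8 were lost under at least 1, and 0 were reversed. Members called with p65 WT against vector numbered 8. They numbered 5 with DESeq2 size factors, 5 with RELA removed before scaling and 4 with the DESeq2 Wald test. No filter and a fit of only these 2 groups gave 6 each, and total-count scaling gave 10 (2 higher and 8 lower). Leaving out 1 library gave 4 to 8. The count was 4 without vector replicate 2 or p65 WT replicate 5 or 6, and 5 without vector replicate 1 or 3. With p65 2CS against p65 WT 5 were called, and 3 to 6 when 1 library was left out (3 without p65 WT replicate 5). With p65 2CS against vector 3 were called, and 2 to 4 when 1 library was left out. ZDHHC11B was gained with p65 2CS against p65 WT under 5 alternatives, 3 of which leave out 1 library. Scaling by total counts added ABHD17C, PPT1 and ZDHHC9 as lower with p65 WT against vector. ZDHHC24 was gained with RELA removed before scaling (adjusted p = 0.0448), ZDHHC21 in p65 2CS against vector without vector replicate 3 (adjusted p = 0.0193). The causes were not tested. Calls over all genes tested stayed within 1.5 times of 5244, 4263 and 5685 in the 3 comparisons. No paired analysis was possible because the groups share no replicate number. Losses among the named pathway genes (SELENOK, THEM4 and ABHD5) are given beside their values. Depth limits ZDHHC15, ZDHHC19 and ZDHHC22.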
